A study of Homo sapiens with 4 samples.

Results

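The ATP-binding cassette (ABC) genes of human HEL cells were examined after knockdown of AFF4. Members were all rows of the count table named ABC, a subfamily letter from A to G and a number, which gave 45 of the 28103 genes. Names that mark pseudogenes or antisense genes were not taken, and 1 further family gene is not analysed here. ABCC13 is annotated as a pseudogene although its name does not say so, and it was kept under the rule. Of the 45 members, 29 passed a filter on low counts and were tested, 10 had reads but too few, and 6 had no read in any library.

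HEL is an established erythroleukaemia line, labelled as human erythroblast and grown in RPMI-1640 medium with serum. Poly(A) RNA from 2 Ctrl libraries (genotype WT) and 2 AFF4 knockdown libraries was sequenced, and all 4 share the cell line and culture medium. The series asks how AFF4, a scaffold of the super elongation complex, acts on the release of paused RNA polymerase II. The sources used here do not say how AFF4 was knocked down or whether replicates were separate cultures. The p-values therefore reflect the spread among 4 libraries, which may be technical.

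ABC proteins bind and hydrolyse ATP at a conserved cassette domain and use the energy to move lipids, drugs, conjugated anions, peptides or metal-bound cofactors across membranes. Most members of subfamilies A, B, C, D and G are membrane transporters, whereas those of E and F lack membrane domains and work on ribosomes and translation. In blood cells and leukaemia the family is best known for drug efflux by ABCB1, ABCC1 and ABCG2, for sterol efflux by ABCA1 and ABCG1, and for mitochondrial and porphyrin transport during haem synthesis.

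Total counts ranged from 14903878 to 19129008 per library. AFF4 (chromosome 5, 132875379 to 132963634, hg38) had 1650 and 1033 reads in Ctrl against 338 and 319 after knockdown, and its log2 fold change was -2.07 ± 0.19 (SE, adjusted p = 0.0268 by the quasi-likelihood test of edgeR). Ctrl libraries differed far more from each other than the knockdown libraries did. The chi-square per degree of freedom against pure counting noise was 44.3 between the Ctrl libraries and 2.50 between the knockdown libraries. Erythroid and megakaryocytic markers were detected in all libraries (16 of 16 listed genes), and 1 gene of each list was called lower, HBG1 among 10 erythroid and ITGB3 among 6 megakaryocytic genes (0.295% of all tested genes were called lower). In CPM, that is counts scaled to the effective library size, the 10 erythroid genes summed to 12377 and 14315 in Ctrl and to 9256 and 9107 in the knockdown. The lower sum lay in the fetal globins HBG1 and HBG2, and the 8 other erythroid genes summed to 2336 and 2915 CPM in Ctrl and to 2777 and 2821 CPM in the knockdown. The 6 megakaryocytic genes summed to 1823 and 2675 CPM in Ctrl and to 1687 and 1810 CPM in the knockdown, and the part of marker differences in the ABC values was not tested. The 3 T cell markers were at 0, and 5 further lists of 3 markers each (B cell, hepatocyte, epithelial, fibroblast and macrophage) summed to at most 2.41 CPM in any library.

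At an adjusted p under 0.05 in the main analysis (edgeR with TMM scaling), ABCC3 was called lower in the knockdown and 0 members were called higher. Another 10 members lay above Ctrl in both knockdown libraries without passing, and 5 including ABCC3 lay below (23.1% and 23% of all tested genes). After a correction for GC content, described further on, 9 were called higher and 5 lower (17.8% and 17.4% of all genes). ABCC3, also called MRP3, exports glucuronides, bile salts and other organic anions. The 2 Ctrl libraries held 559 and 611 ABCC3 reads, the 2 knockdown libraries 130 and 127. On the scaled values it was at 29.9 and 40.9 CPM in Ctrl and at 7.19 and 7.54 CPM in the knockdown, so both knockdown libraries lay far below both Ctrl libraries. The log2 fold change was -2.26 ± 0.23 (SE, 2 libraries a group), a 4.80-fold fall (edgeR adjusted p = 0.0268). The share of tested genes called was 0.295% in the downward and 0.346% in the upward direction, against 1 and 0 of the 29 tested members. DESeq2 and limma-voom likewise called 0 members higher (1.47% and 0.391% of genes) and 1 lower (1.74% and 0.287%). In bulk RNA, fewer cells of a type and less RNA per cell cannot be told apart. ABCC3 also fell in DESeq2 and limma-voom and with any 1 library left out (log2 fold change from -2.47 to -2.02, edgeR adjusted p of at most 0.00737). Its call was lost when the filter was raised to 5 CPM in 2 or more libraries (edgeR adjusted p = 0.0573). AFF4 itself lost its call there too (edgeR adjusted p = 0.0552), and 0.00925% of genes were called higher and 0.037% lower.

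**Figure D1:**
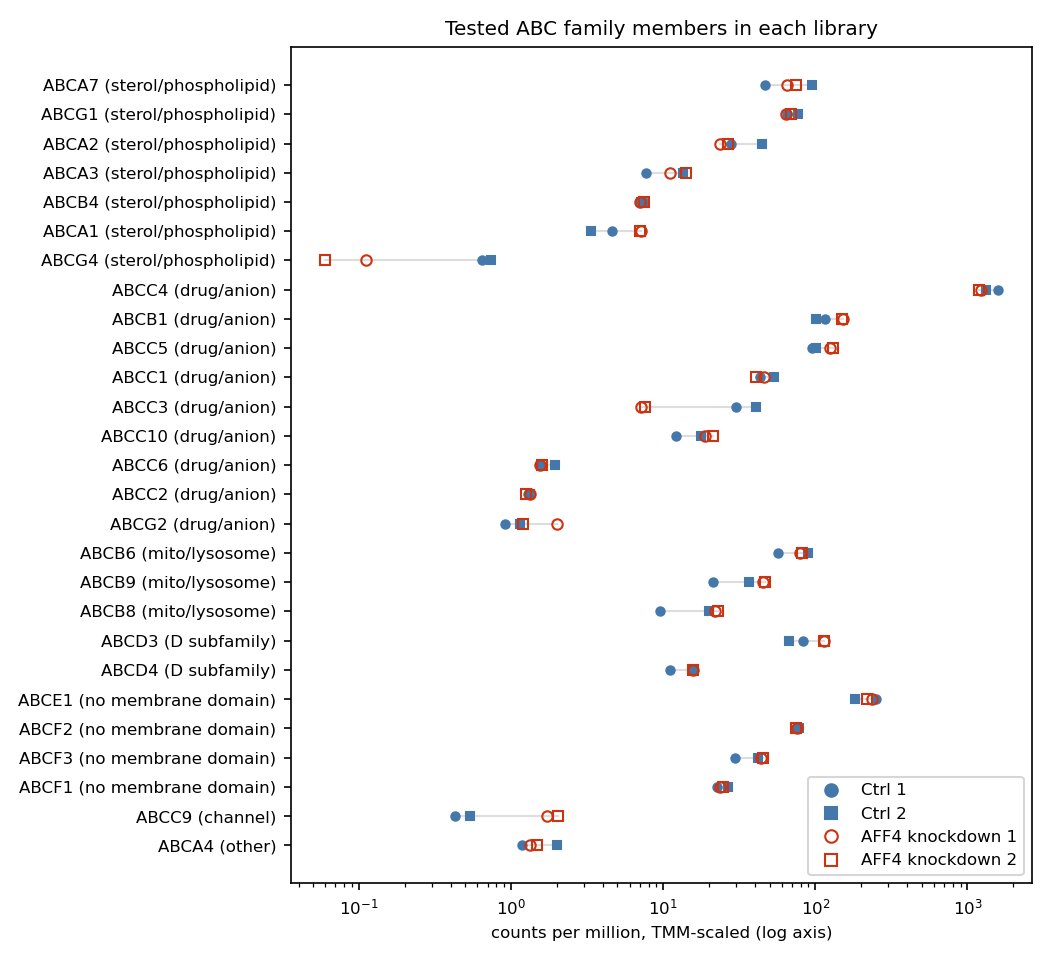
Level of the tested members reported here in each library, in CPM on a log axis, with filled blue marks for the 2 Ctrl and open red marks for the 2 knockdown libraries. ABCC3 lies at 29.9 and 40.9 in Ctrl and at 7.19 and 7.54 in the knockdown, and ABCC4 lies above all other members shown in every library.

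The family was dominated by another organic anion pump, ABCC4 (chromosome 13, 95019829 to 95301475, minus strand). ABCC4, or MRP4, exports cyclic nucleotides, prostanoids and nucleotide drugs and is also known from platelets. Its reads numbered 29784 and 19835 in the Ctrl libraries, 22277 and 20153 in those of the knockdown. Of all reads on ABC members, ABCC4 took 59.2% in Ctrl 1 and 52.6% in Ctrl 2 (95% Wilson intervals 58.8% to 59.6% and 52.1% to 53.1%). It took 49.5% in knockdown 1 and 48.6% in knockdown 2 (lower limits 49.1% and 48.1%). These intervals cover counting error only. Per kilobase of merged exons its level was 169 ± 21.9 FPKM in Ctrl and 141 ± 2.81 FPKM in the knockdown (mean ± SD, n = 2 each), rank 183 and rank 230 among 13216 tested genes with a length. In CPM the Ctrl libraries were at 1595 and 1328, both above the knockdown libraries at 1231 and 1197. The log2 fold change of -0.27 ± 0.13 (SE) did not pass (edgeR adjusted p = 0.421), and it was -0.13 without Ctrl 1 and -0.39 without Ctrl 2.

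The upstream sequences of ABCC4 and ABCB1 are shown because these were the most abundant drug and anion pumps per length, and they differ in base composition. Each stretch begins 250 bases before the start given by RefSeq (GRCh38.p14) and stops before the first transcribed base of the gene model. Capitals mark a match to TGACNNNGC, the core of the antioxidant response element, on either strand.
ABCC4, chr13:95301476-95301701, minus strand: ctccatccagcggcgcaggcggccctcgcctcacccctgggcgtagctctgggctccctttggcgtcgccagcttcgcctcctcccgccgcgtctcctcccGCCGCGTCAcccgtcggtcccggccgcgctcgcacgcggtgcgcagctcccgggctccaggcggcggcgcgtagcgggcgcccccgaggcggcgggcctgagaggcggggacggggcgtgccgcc
ABCB1, chr7:87713324-87713545, minus strand: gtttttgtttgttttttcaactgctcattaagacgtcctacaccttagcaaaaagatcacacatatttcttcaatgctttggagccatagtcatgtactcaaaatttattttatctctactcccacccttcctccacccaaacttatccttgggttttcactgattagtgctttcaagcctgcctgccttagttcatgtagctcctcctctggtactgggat
The ABCC4 stretch of 226 bases is 80.1% G and C with 37 CG dinucleotides and 1 match. The ABCB1 stretch of 222 bases is 40.5% G and C with 1 CG dinucleotide and 0 matches. It lies before the outer end of a gene model of 209691 bases, and start sites within that model were not examined. Which start these cells use was not tested for either gene. Windows from 250 bases before to 50 after the start were in the RefSeq table for 34 members, 22 of them tested. ABCC3 had no window there, so its upstream sequence was not searched for the motif. Among these 22, the median was 65.5% G and C, and 6 held the motif (ABCA2, ABCA3, ABCB6, ABCC4, ABCD4 and ABCF1), or 27.3%. Over all 35116 promoters of that length the median was 58.7% G and C, and 13.3% held the motif.

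The other drug and anion pumps did not pass the test, in either direction. ABCB1, the multidrug pump P-glycoprotein, was at 115 and 101 CPM in Ctrl and at 151 and 150 CPM in the knockdown. These did not overlap, and the log2 fold change was 0.48 ± 0.15 (SE, edgeR adjusted p = 0.189). ABCC5, or MRP5, which exports cyclic nucleotides, was at 94.9 and 101 CPM in Ctrl and at 125 and 130 CPM in the knockdown, with 0.38 ± 0.14 (adjusted p = 0.272). ABCC1, or MRP1, which exports glutathione conjugates, was at 42.9 and 53.8 CPM in Ctrl and at 46.0 and 40.7 CPM in the knockdown. Its groups overlapped (-0.16 ± 0.19, adjusted p = 0.789). ABCC10 had 0.43 ± 0.24, the breast cancer resistance protein ABCG2 had 0.65 ± 0.37 from 17 to 36 counts a library, ABCC6 had -0.14 ± 0.29 and ABCC2, the bile canalicular anion pump, had -0.02 ± 0.30. Of the 9 tested drug and anion pumps, 4 had a positive and 5 a negative log2 fold change, and the median was -0.02, beside -0.0089 over all 13572 tested genes. The reads of ABCC6 may be split with its pseudogene copies, since the sources used here do not state how multi-mapped reads were treated.

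**Figure D2:**
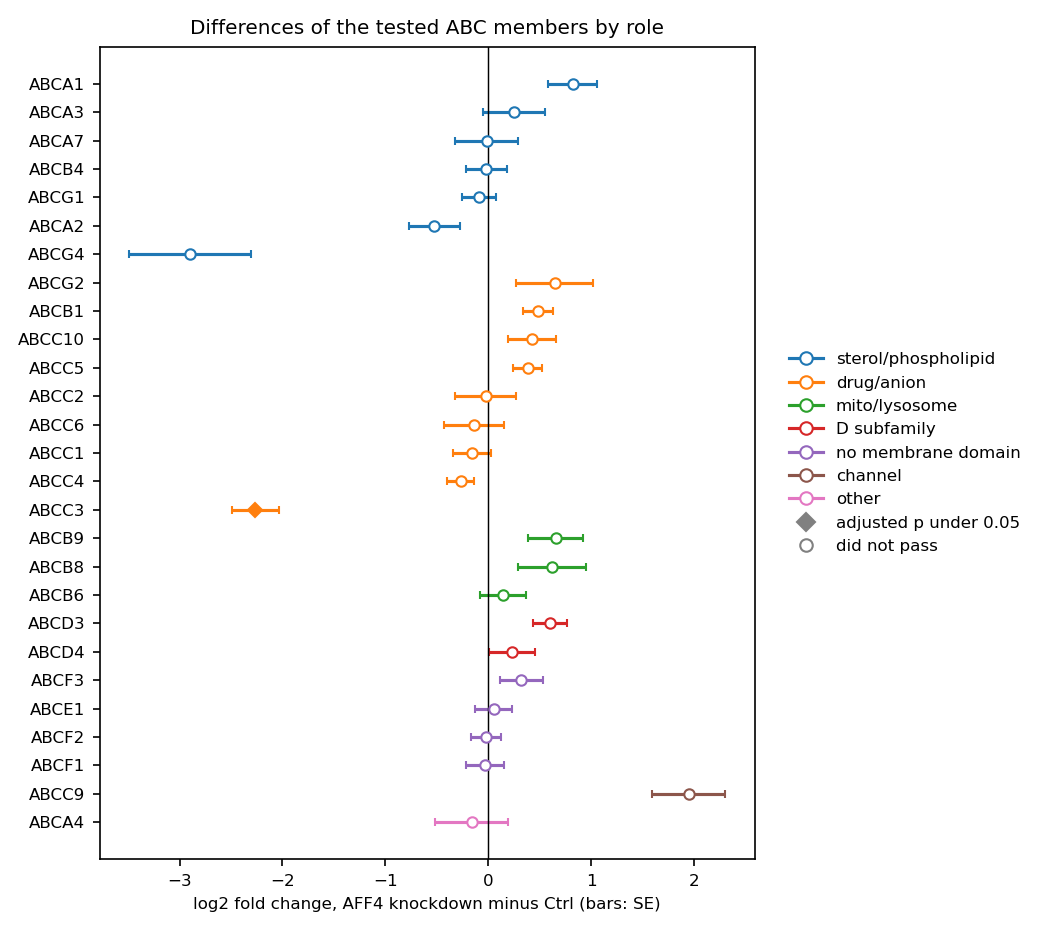
Log2 fold change of the tested members reported here, knockdown minus Ctrl, grouped and coloured by role, with bars of 1 SE. The filled diamond marks ABCC3 at -2.26, the member with an adjusted p under 0.05, and open circles mark members that did not pass.

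The members with the next smallest p after ABCC3 both rested on few reads. ABCC9 encodes SUR2, the regulatory subunit of ATP-sensitive potassium channels (chromosome 12, 21797401 to 21942529, minus strand). Only 8 reads fell on ABCC9 in each Ctrl library, and 31 and 34 in the knockdown libraries, which is 0.482 ± 0.0758 and 1.87 ± 0.216 CPM (mean ± SD, n = 2 each). Both knockdown libraries were above both Ctrl libraries. Its log2 fold change of 1.95 ± 0.35 (SE) missed the threshold (edgeR adjusted p = 0.0668). ABCG4, a sterol exporter known from brain (chromosome 11, 119149012 to 119162653, plus strand), had 12 and 11 reads in Ctrl against 2 and 1 after knockdown. The Ctrl level was 7.97 times that of the knockdown, with an exact 95% counting interval from 2.41 to 41.4, and the edgeR adjusted p was 0.0860 (DESeq2 gave none). ABCC9 passed the low-count filter through the knockdown libraries and ABCG4 through the Ctrl libraries, so a difference in that direction was a condition of being tested. Both were called with no filter (adjusted p = 0.00232 and 0.0286), where 1.74% of genes were called higher and 2.15% lower.

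Among 7 tested sterol and phospholipid exporters, 0 were called by edgeR, DESeq2 or limma-voom. Over all tested genes these called 0.346%, 1.47% and 0.391% higher and 0.295%, 1.74% and 0.287% lower. Unadjusted p-values under 0.05 went to 1 gene in each direction (6.79% of all tested genes higher and 8.19% lower). The lower gene was ABCG4, which had passed the filter only through the Ctrl libraries. ABCA1, which loads cholesterol onto apolipoprotein A-I, was at 4.60 and 3.35 CPM in Ctrl and at 7.13 and 7.01 CPM in the knockdown. Its groups did not overlap, and the log2 fold change was 0.82 ± 0.24 (SE, edgeR adjusted p = 0.179). ABCG1, which passes sterols to high-density lipoprotein, was at 70.8 ± 8.74 CPM in Ctrl and at 66.6 ± 3.02 CPM in the knockdown, with -0.09 ± 0.17. ABCA2, an endolysosomal lipid transporter, was at 28.0 and 44.5 CPM in Ctrl and at 23.7 and 26.7 CPM in the knockdown, with -0.52 ± 0.25 (adjusted p = 0.394) and -0.16 without Ctrl 2. ABCA7, a phospholipid transporter, was at 46.8 and 94.9 CPM in Ctrl, and the knockdown libraries at 65.3 and 74.7 CPM lay between them. ABCA3, the surfactant lipid transporter, had 0.25 ± 0.30, and ABCB4, the phosphatidylcholine transporter of bile, had -0.02 ± 0.20. The retinal transporter ABCA4 had -0.16 ± 0.35.

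The mitochondrial and lysosomal members of subfamily B included 3 of 4 with a positive log2 fold change (48.8% of all tested genes). In edgeR, DESeq2 and limma-voom 0 passed, beside 0.346%, 1.47% and 0.391% of genes called higher and 0.295%, 1.74% and 0.287% lower. At an unadjusted p under 0.05, 1 was higher, beside 6.79% of all tested genes. ABCB9, a lysosomal peptide transporter, was at 21.4 and 36.9 CPM in Ctrl and at 44.9 and 46.7 CPM in the knockdown (0.66 ± 0.27, edgeR adjusted p = 0.310). ABCB9 overlaps ARL6IP4 and OGFOD2 on the opposite strand, and without a stated strand setting their reads cannot be told apart. ABCB8, of the inner mitochondrial membrane, was at 9.58 and 19.9 CPM in Ctrl and at 22.5 ± 0.740 CPM (mean ± SD, n = 2) in the knockdown (0.62 ± 0.33). Without Ctrl 1 these differences were 0.31 and 0.18, and without Ctrl 2 they were 1.10 and 1.23. The porphyrin transporter ABCB6 was at 56.8 and 88.8 CPM in Ctrl, and the knockdown libraries at 79.7 and 81.3 CPM lay between them (0.15 ± 0.22).

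In subfamily D, ABCD3 (chromosome 1, 94418455 to 94518666), the peroxisomal importer of branched-chain acids and bile acid intermediates, was at 82.8 and 67.2 CPM in Ctrl. Both knockdown libraries were at 114 CPM, above both Ctrl libraries. The log2 fold change of 0.60 ± 0.16 (SE) did not pass (edgeR adjusted p = 0.154). ABCD4, which brings cobalamin out of lysosomes, was at 13.3 ± 3.28 and 15.6 ± 0.0151 CPM (0.23 ± 0.23).

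The members without membrane domains had 0 calls. Over all tested genes edgeR called 0.346% higher and 0.295% lower, DESeq2 1.47% and 1.74%, and limma-voom 0.391% and 0.287%. ABCE1, which splits ribosomes after termination, was the second most abundant member per length, at 34.6 ± 7.77 FPKM in Ctrl. In CPM it was at 251 and 183 in Ctrl, and the knockdown libraries at 234 and 217 lay between them (0.06 ± 0.18). ABCE1 overlaps ANAPC10 and OTUD4 on the opposite strand. ABCF2 was at 75.3 and 78.0 CPM in Ctrl and at 76.0 and 75.0 CPM in the knockdown (-0.02 ± 0.15). ABCF1, which binds the initiation factor eIF2, had -0.03 ± 0.18 and ABCF3 had 0.32 ± 0.21. Of these 4 genes, 0 passed (edgeR, DESeq2 or limma-voom), and 0 had an unadjusted p under 0.05 (6.79% of all tested genes higher and 8.19% lower).

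Per length, the order within the family in Ctrl began with ABCC4, ABCE1, ABCB1, ABCF2 and ABCB6, at 169, 34.6, 18.6, 18.4 and 13.9 FPKM. ABCB1 and ABCF2 did not differ beyond their SD of 1.75 and 0.450 FPKM. The knockdown had the same 5 genes in the same order. Within their subfamilies, the most abundant members in Ctrl were ABCA7 (8.47 ± 4.06 FPKM), ABCB1, ABCC4, ABCD3 (9.88 ± 1.45 FPKM), ABCE1, ABCF2 and ABCG1 (11.6 ± 1.43 FPKM). ABCC3 moved from place 15 of 29 in Ctrl (3.68 ± 0.807 FPKM) to place 22 in the knockdown (0.766 ± 0.0263 FPKM; mean ± SD, n = 2 each).

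The remaining 16 members were not tested in the main analysis. ABCB5, a pump known from melanoma, had 5 reads in each Ctrl library and 22 and 9 in the knockdown libraries. ABCB11, the bile salt export pump, had 3 to 9 counts a library, and ABCA5, ABCA8, ABCA9, ABCA10, ABCA12, ABCC8, ABCC11 and ABCD2 had at most 5. ABCA6, ABCA13, ABCC12, ABCC13, ABCG5 and ABCG8 had 0 counts in all libraries, which allows a level of up to 0.157 to 0.201 CPM (3 counts a library). The cluster of ABCA5, ABCA6, ABCA8, ABCA9 and ABCA10 on chromosome 17 thus held between 0 and 14 reads a gene over all 4 libraries.

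Both knockdown libraries lay above both Ctrl libraries in 10 of the 29 tested members and below them in 5. Over all tested genes this was so in 23.1% and 23% of genes. The 10 were ABCA1, ABCB1, ABCB8, ABCB9, ABCC5, ABCC9, ABCC10, ABCD3, ABCF3 and ABCG2, and the 5 included ABCA2, ABCC3, ABCC4 and ABCG4. At an unadjusted p under 0.05, 6 members had a positive and 2 a negative log2 fold change (6.79% and 8.19% of all tested genes). ABCC9 is among the 10 and the 6, and ABCG4 among the 5 and the 2. For both, a difference in that direction was a condition of being tested. Regardless of p, 14 were positive and 15 negative, and over all tested genes 48.8% and 51.2%.

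**Figure D3:**
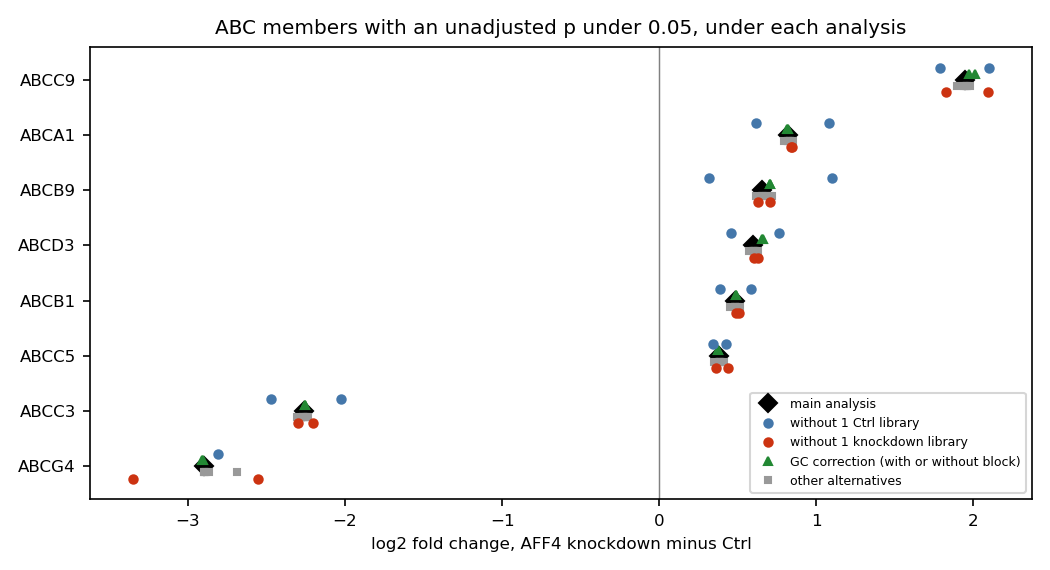
Log2 fold change of the 8 members with an unadjusted p under 0.05, in the main analysis (black diamonds) and under each alternative. Leaving out a Ctrl library (blue) moves ABCB9 from 0.31 to 1.10, whereas ABCC3 stays between -2.47 and -2.02 with any 1 library left out.

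The spread between the Ctrl libraries followed the GC content of the transcripts. Across the 29 tested members, Spearman's rho between GC content and the log2 ratio of Ctrl 2 to Ctrl 1 was 0.82, and across 13211 tested genes it was 0.84. For the log2 ratio of knockdown 2 to knockdown 1 it was 0.50 over the members and 0.42 over 13216 tested genes. All members of a library share its depth and preparation, so this is a description. The 15 members with at least 54.5% GC were each higher in Ctrl 2, by a median of 0.54 on the log2 scale, as were 7 of the 14 members below that, with a median of -0.01. Between knockdown 2 and knockdown 1 the medians of these groups were 0.07 and -0.01. ABCB8 and ABCA7, at 61.0% and 64.2% GC, had log2 ratios of 1.05 and 1.02, and ABCE1 at 39.2% GC had -0.46. Between knockdown and Ctrl the rho over the members was -0.24, and with genomic span it was 0.14. Over 13216 tested genes these were -0.0037 and 0.021.

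**Figure D4:**
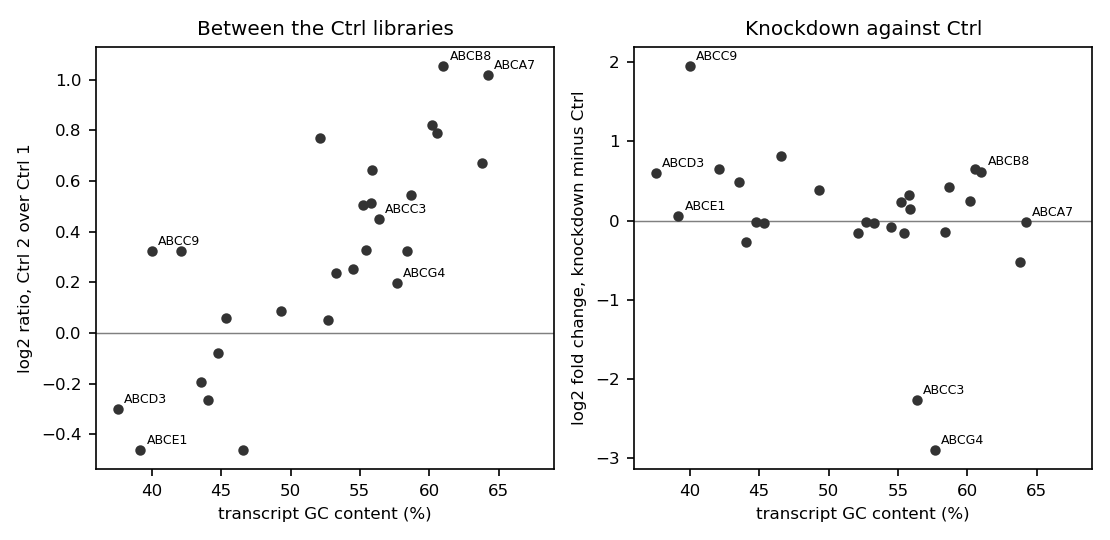
Transcript GC content of the tested members reported here in percent against the log2 ratio of Ctrl 2 to Ctrl 1 (left) and the log2 fold change of knockdown minus Ctrl (right). The left panel rises from ABCE1 at -0.46 to ABCB8 at 1.05, and in the right panel ABCC3, ABCG4 and ABCC9 stand apart from the other members shown.

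When the trend with GC content was removed from each library, 9 members were called higher and 5 lower, with 17.8% and 17.4% of all genes called. ABCC3 was at -2.26 (adjusted p = 1.41e-06). The 9 were ABCA1, ABCB1, ABCB8, ABCB9, ABCC5, ABCC9, ABCC10, ABCD3 and ABCF3, and the 5 included ABCA2, ABCC3, ABCC4 and ABCG4. ABCD3 had 0.66, ABCB1 0.49, ABCA1 0.82 and ABCC4 -0.26 in that fit (edgeR adjusted p = 8.93e-05, 0.000182, 0.00399 and 0.00195). Of these 14 members, ABCC3 alone was called in the main analysis. ABCC9 and ABCG4 had each passed the low-count filter only through the group where they were higher. With a block for replicate number and no GC correction, ABCA1, ABCB9, ABCC9 and ABCD3 were the 4 members called higher, and ABCC3 and ABCG4 the 2 called lower (3.01% and 3.54% of genes), and with both the block and the correction 9 and 5 (21.2% and 20.4%).

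Leaving out a Ctrl library changed which members were called, in part through the filter. ABCB5, with 5 reads in each Ctrl library and 22 and 9 in the knockdown, entered the test without Ctrl 2 and was called higher there. ABCB5, ABCC9 and ABCG4 passed the filter only through the group where they were higher. For these, a difference in that direction was a condition of being tested. Without Ctrl 1, 7 were called higher and 6 lower (21.5% and 22.5% of genes), and without Ctrl 2, 15 and 5 (24.5% and 23.9%). ABCA7 was called lower without Ctrl 1 and higher without Ctrl 2, and ABCE1 was called higher without Ctrl 1 and lower without Ctrl 2. Without either of the knockdown libraries, ABCC3 was the 1 member called lower (0.0791% of genes called lower without knockdown 1 and 0.108% without knockdown 2), and 0 were called higher (0.252% and 0.258%).

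Genes beside ABCC3 did not pass the test. ABCC3 lies on the plus strand of chromosome 17 (50634777 to 50692252), and 9 tested genes lay within 250 kb of it. Their median log2 fold change was -0.28, and 0 were called (edgeR, 2 lower at an unadjusted p under 0.05, beside 8.19% of all tested genes). Regardless of p, 8 had a negative and 1 a positive value (51.2% and 48.8% of all tested genes). SPATA20, which starts 91.7 kb upstream, had -0.69 ± 0.27, and ANKRD40, downstream on the opposite strand, had -0.23 ± 0.15. The splicing factor LUC7L3 had 0.13 ± 0.18 and the antiproliferative gene TOB1, at 233 kb, had -0.87 ± 0.23 (SE; edgeR adjusted p = 0.146). Members that neighbour each other did not always have like values. ABCB1 and ABCB4, 23198 bases apart on the same strand, had 0.48 and -0.02, ABCB8 and ABCF2 had 0.62 and -0.02, and ABCC5 and ABCF3 had 0.38 and 0.32.

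**Figure D5:**
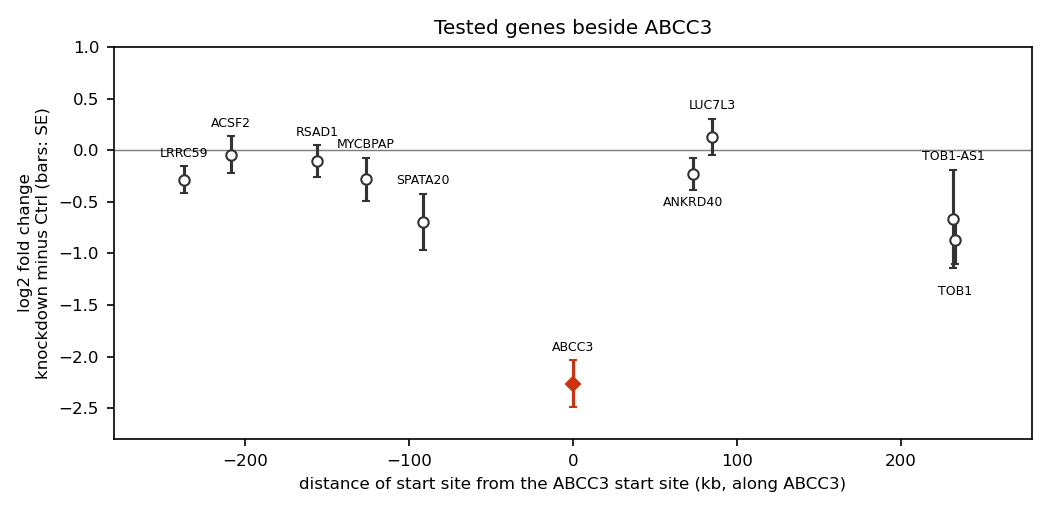
Log2 fold change (knockdown minus Ctrl, bars of 1 SE) of tested genes against the distance of their start site from that of ABCC3, in kb along the gene. ABCC3 lies at -2.26, and the 9 other genes lie between -0.87 and 0.13 and did not pass.

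Genes that work with the family were taken from lists drawn up for it, counted here without ABC members. The lists were chosen with earlier results of these data known, so their counts are not independent of these values. Among 19 tested NRF2 targets, a list to which ABCC1, ABCC2 and ABCC3 also belong, 3 rose and 0 fell in the edgeR fit, and an unadjusted p under 0.05 was reached by 4 genes with positive values and 0 with negative ones. Over all tested genes 0.346% were called higher and 0.295% lower, and 6.79% and 8.19% reached the unadjusted threshold. The 3 were the aldo-keto reductases AKR1C1 (2.99 ± 0.246 to 12.7 ± 0.812 CPM), AKR1C2 (1.43 ± 0.407 to 6.09 ± 0.714 CPM) and AKR1C3 (7.22 ± 0.548 to 22.1 ± 0.740 CPM; mean ± SD, n = 2 each). On the log2 scale they rose by 2.08, 2.07 and 1.61 (edgeR adjusted p = 0.0268, 0.0394 and 0.0356). They lie together on chromosome 10 (4963253 to 5107686), and as close paralogs they may share reads. AKR1C3 lost its call without knockdown 1 (adjusted p = 0.0524), and the 3 lost theirs with the filter of at least 5 CPM (up to 0.0686). The median of the list was -0.13, with 7 positive and 12 negative values, beside 48.8% and 51.2% over all tested genes. The glutathione synthesis subunit GCLC had 0.42 ± 0.16, TALDO1 -0.30 ± 0.15 and OSGIN1 -0.84 ± 0.40, and these did not pass.

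In 6 other lists 0 genes were called by edgeR or limma-voom, and their unadjusted counts stand beside 6.79% of all tested genes higher and 8.19% lower, the DESeq2 counts beside 1.47% and 1.74%. The enzymes that conjugate glutathione, glucuronic acid or sulfate had a median of 0.07 over 19 tested genes, and UGDH, which makes the glucuronide donor, had -0.62 ± 0.19 while GSTM3 had 0.39 ± 0.14 and MGST1 0.39 ± 0.19. At an unadjusted p under 0.05 this list had 1 higher and 1 lower, and 0 in DESeq2. Organic ion carriers of the SLC families had a median of -0.15 over 11 genes (2 higher and 2 lower unadjusted, 0 and 1 in DESeq2). Among them SLCO3A1 had -0.83 ± 0.18 (edgeR adjusted p = 0.0997), SLCO2B1 1.01 ± 0.26 and SLC22A4 1.07 ± 0.33. LXR and sterol efflux genes had a median of -0.0028 over 14 genes (1 higher and 2 lower unadjusted, 0 in DESeq2), with APOC1 at 0.42 ± 0.16 and NPC2 at -0.51 ± 0.20.

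Peroxisomal genes, the partners of subfamily D, had a median of -0.09 over 25 genes (0 higher and 3 lower unadjusted, 0 and 1 in DESeq2). The peroxisomal import factor PEX2 had -0.66 ± 0.18 (edgeR adjusted p = 0.159), beside 0.60 for ABCD3. Iron-sulfur and haem genes had a median of 0.10 over 23 genes (2 higher and 1 lower unadjusted, 1 and 0 in DESeq2). There the haem-forming ferrochelatase FECH had 0.69 ± 0.14 (edgeR adjusted p = 0.0872), LYRM4 had 0.46 ± 0.17 and the cysteine desulfurase NFS1 had -0.44 ± 0.14. Ribosome recycling and GCN2 genes had a median of -0.03 over 17 genes, with 0 at an unadjusted p under 0.05 and 0 in DESeq2. The smallest p values there were those of EIF2S2 (-0.23 ± 0.19), EIF2S3 (-0.13 ± 0.16) and HBS1L (-0.12 ± 0.16).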

How the data were processed

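The deposited values were whole-number read counts per gene symbol, in 1 table of 28103 genes and 4 libraries. Per the submitters' processing notes, fastp 0.13.1, HISAT2 2.1.0, featureCounts 1.6.1 and build hg38 were used. Annotation, strand setting and multi-mapping treatment: not given in the sources used here. Columns were matched to samples by name.

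Counts were fitted with edgeR 4.0.16 in R 4.3.3. The filter filterByExpr (minimum count 10, minimum total 15) left 13572 genes, which were scaled by TMM and compared by a quasi-likelihood F test with group as the only term. Benjamini-Hochberg adjusted p-values under 0.05 were taken as calls. Each SE is the size of the log2 fold change over the root of F. CPM uses TMM-scaled library sizes, and FPKM divides CPM by merged exon length in kb from GENCODE 29, which also gave positions and GC content. Changes are relative to the other genes, so a shared rise or fall would not show. The fit was tested on simulated counts with the same dispersion in all libraries and no GC trend. That test therefore does not cover the wider spread of the Ctrl libraries.

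DESeq2 1.42.0, limma-voom (limma 3.58.1), other scalings and filters, a GC correction (lowess, span 0.4), a replicate block and each library left out were alternatives. Protein sequences were not used here. Members, role groups and lists were chosen with earlier results of these data known. A few members and list genes were kept in the fit and in counts but are not reported here. Named were AFF4, the other members, called list genes, up to 3 further genes a list with the smallest adjusted p, and genes beside ABCC3.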

Additional observations from a re-analysis of the deposited data

How the results depend on the processing

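The calls depended on the Ctrl spread. With any 1 library left out, between 0 and 15 members were called higher and between 1 and 6 lower, against 35 to 3407 and 11 to 3315 of all genes. The high counts came without Ctrl 1 or Ctrl 2, where the spread rests on the knockdown pair and the lone Ctrl library is assumed to vary like it. The members called higher without Ctrl 2 include ABCB5 and ABCC9, which passed the filter only through knockdown libraries. The counts of members higher and lower were 1 and 2 with no filter (328 and 406 of all genes) and 9 and 5 after the GC correction (2359 and 2303 of all genes). The number of members called was 0 with the 5 CPM filter (1 and 4 of all genes) and 0 at an adjusted p under 0.01 (1 and 2 of all genes). DESeq2 called 188 and 222 genes. Replicate numbers match across groups, but the labels do not say that they pair libraries. Across the tested genes, the log2 difference between replicates 1 and 2 in Ctrl correlated at 0.29 with that in the knockdown. Both differences also followed GC content, so this value cannot decide whether libraries were paired. With the replicate block 4 members were higher and 2 lower (408 and 480 of all genes), and with the GC correction and the replicate block 9 and 5 (2802 and 2696 of all genes).

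Of the genes reported here, signs reversed for 13 members and 3 list genes, none of which passed in the reported analysis. ABCA7 was at 0.078 with the GC correction, 0.081 with that and the block, 0.0077 with library-size scaling, 0.079 in limma-voom and 0.064 with the replicate block. With library-size scaling, ABCC2, ABCF2, ABCB4 and ABCF1 were at 0.0053, 0.0072, 0.014 and 0.0012. With 1 library left out, ABCA3 ranged from -0.11 to 0.71, ABCA4 from -0.51 to 0.25, ABCA7 from -0.44 to 0.58, ABCB4 from -0.056 to 0.054, ABCB6 from -0.14 to 0.501, ABCC1 from -0.31 to 0.014, ABCC2 from -0.053 to 0.019, ABCC6 from -0.298 to 0.019, ABCD4 from -0.00041 to 0.502, ABCE1 from -0.16 to 0.31, ABCF1 from -0.14 to 0.094, ABCF2 from -0.044 to 0.0022, ABCG1 from -0.21 to 0.042, EIF2S2 from -0.47 to 0.055, EIF2S3 from -0.31 to 0.077 and HBS1L from -0.29 to 0.071. The causes were not tested.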
